A study of Mus musculus with 3 samples.

Results

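A set of 9 genes that mark lipid-laden macrophages were followed in tumor leukocytes: Apoe, Trem2, Gpnmb, Spp1, Fabp5, Lpl, Cd36, Abca1 and Cd9. They were chosen by symbol, and all 9 had a row among the 32285 genes of the count matrices. Their UMIs (unique molecular identifiers, each standing for 1 captured transcript) were summed per library in 774 C1qa macrophages and 769 Ly6c2/Fn1 monocytes, out of 12472 cells kept in all. A cell was gated as a macrophage with at least 3 UMIs of C1qa, a complement component made by tissue macrophages, and as a monocyte with fewer than 3 C1qa UMIs and at least 1 UMI each of Ly6c2 and Fn1. Both gates required no Cd3e UMI and at most 1 Csf3r UMI, the genes that gated T cells and neutrophils.

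The leukocytes were live CD45+ cells sorted from primary mammary tumors of female BALB/c mice, implanted at 6 to 8 weeks of age and collected on day 14. The vehicle library came from tumors of 4T1-luc, a luciferase-tagged BALB/c mammary carcinoma line, in mice given DPBS. The p38i library came from the same tumor cells in mice given the p38 inhibitor LY2228820 (ralimetinib) at 30 mg/kg by gavage each day for 10 days from day 4. The p38KO library came from tumors of the CRISPR-Cas9 knockout cells p38a-KO-H9, a single clone, in mice for which the labels give no treatment. Each library pooled the tumors of 3 mice, and there was 1 library per group, so mouse-to-mouse variation could not be measured and no test between groups was run. All intervals given are 95% intervals that cover counting error only. A gene was called higher or lower where its log2 ratio was at least 0.5 in size, its interval left out 0 and both libraries together held at least 20 counts.

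Lipid-associated macrophages are macrophages that take up lipid from dying cells and lipoproteins, store or break it down, and export cholesterol. They are best known from adipose tissue and atherosclerotic plaque, and a like program is found in macrophages of many tumors. Among its genes, Apoe encodes the lipoprotein that carries exported cholesterol, and Trem2 encodes a surface receptor for lipids and lipoproteins that signals through Tyrobp. Cd36 is a scavenger receptor for oxidized lipoproteins and long-chain fatty acids. Lpl is the lipase that frees fatty acids from lipoprotein triglyceride, Fabp5 is a fatty acid chaperone of the cytosol, and Abca1 is the pump that loads cholesterol onto apolipoproteins. Spp1 encodes the secreted protein osteopontin, Gpnmb a glycoprotein of lysosome-rich cells, and Cd9 a tetraspanin of the cell surface.

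In GRCm38, the mm10 build named in the submitters' processing notes, all 9 are protein-coding genes. Apoe lies at chr7:19696109-19699188 on the minus strand, Trem2 at chr17:48346401-48354147 on the plus strand and Cd36 at chr5:17781690-17888801 on the minus strand. Spp1 lies at chr5:104435118-104441050, Lpl at chr8:68880491-68907448, Fabp5 at chr3:10012548-10016607 and Gpnmb at chr6:49036546-49070929, all on the plus strand. Abca1 lies at chr4:53030787-53159895 and Cd9 at chr6:125460266-125494791, both on the minus strand.

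The promoters of Trem2 and Apoe, whose transcripts were higher in p38KO macrophages, and of Cd36, lower in both other libraries than in vehicle, are shown as the 250 bases before a RefSeq start site in GRCm38.p6, on the strand of the gene. Capitals mark matches to the motifs searched on both strands.
Trem2, chr17:48346151-48346400: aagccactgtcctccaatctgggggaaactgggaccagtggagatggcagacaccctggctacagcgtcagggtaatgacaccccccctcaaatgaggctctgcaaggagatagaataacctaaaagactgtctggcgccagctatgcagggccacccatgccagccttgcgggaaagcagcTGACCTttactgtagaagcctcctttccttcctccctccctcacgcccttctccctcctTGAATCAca
Cd36, chr5:17835897-17836146: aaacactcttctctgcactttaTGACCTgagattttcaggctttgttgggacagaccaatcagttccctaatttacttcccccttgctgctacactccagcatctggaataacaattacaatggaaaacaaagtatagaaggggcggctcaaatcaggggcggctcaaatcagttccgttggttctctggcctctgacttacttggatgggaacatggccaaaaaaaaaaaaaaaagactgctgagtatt
Apoe, chr7:19699189-19699438: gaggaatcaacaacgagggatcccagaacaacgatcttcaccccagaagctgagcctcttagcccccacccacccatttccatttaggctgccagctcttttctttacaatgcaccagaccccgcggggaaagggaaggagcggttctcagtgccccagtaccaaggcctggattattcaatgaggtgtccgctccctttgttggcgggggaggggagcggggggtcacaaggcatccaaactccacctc
The motifs were AGGTCA, the half-site of nuclear receptors such as LXR and PPAR, and TGANTCA, a loose form of the AP-1 site that takes any middle base. The others were GAGGAAGT, a PU.1 site, and TCACGTG, the E-box read by MITF and TFEB. RefSeq windows matched 7 of the 9 members, with 10 start sites. The half-site was found in 2 of these 10, Trem2 and Cd36, against 14.0% of all 32851 windows of this length. In Trem2 it began 68 bases before the start and in Cd36 228 bases before it. The loose AP-1 letters were in the Trem2 window alone, as TGAATCA, 9 bases before the start (6.75% of all windows). The PU.1 letters were in 1 window of Spp1, 113 bases before the start (2.44%). The E-box was in none of the 10 (3.13% of all windows). A match is a description of these letters and not of binding.

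The kept cells numbered 3820 in vehicle, 4793 in p38i and 3859 in p38KO, and their median depth was 3038 to 3317 UMIs. The C1qa macrophages were 145, 163 and 466 cells, or 3.80%, 3.40% and 12.1% of kept cells, with medians of 17362, 16878 and 13242 UMIs. The monocytes were 235, 332 and 202 cells with medians of 7945 to 8911 UMIs. The 6 macrophage markers used as a check (among them C1qb, C1qc, Adgre1, Mrc1 and Csf1r) summed to 8248, 7880 and 9832 CPM (UMIs of a gene per 1000000 UMIs of the gate) in the macrophage gate and to 1597 to 2101 in the monocyte gate, and the 6 monocyte markers to 6439 to 7938 in monocytes and 1228 to 1637 in macrophages. Ly6c2 and Fn1 are among the 6 monocyte markers and also set that gate, so part of this separation was fixed beforehand. Ccr2, Chil3, Plac8 and F13a1, which set no gate, stood at 1115, 281, 3102 and 463 CPM in vehicle monocytes. In vehicle macrophages they stood at 288, 3.84, 121 and 97.1. Adipocyte markers (Adipoq, Plin1 and Cidec) were at 0 in both gates of every library. Mast cell markers summed to 0.698, 0 and 121 CPM in macrophages, with Cpa3 in 21 of 466 p38KO macrophages, and neutrophil markers to 275, 535 and 388 in macrophages and 1698, 2817 and 1534 in monocytes. Dendritic cell markers summed to 38.9, 27.0 and 109 in monocytes, with 1, 23 and 104 UMIs of Xcr1. Without cells holding a mast or B cell marker, the p38KO ratios of macrophages stayed called for Lpl at -2.51 and Cd36 at -1.20, while Abca1, at 0.48, was no longer called. The part of the neutrophil and dendritic cell transcripts in the results was not tested. The median mitochondrial share of kept cells was 0.671%, 0.968% and 2.10%. Mapk14, the gene knocked out in the tumor cells, stood at 33.7, 42.1 and 39.1 CPM of kept cells in vehicle, p38i and p38KO. These are host leukocytes, so Mapk14 does not check the knockout. Pairs of libraries shared 4 or 5 kept cell barcodes.

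Apoe had its highest level in macrophages. Its level there was 11057 CPM in vehicle, 13214 in p38i and 19527 in p38KO. In monocytes it was 4055, 3471 and 3865, in cells with Fn1 and no Ly6c2 UMI 2969, 2392 and 2553, in neutrophils 766, 927 and 1126, and in T cells 48.5, 51.7 and 120. These 5 gates kept this order in each library, with no overlap of the intervals of neighbouring gates. The macrophage gate held 54.6%, 51.4% and 68.0% of all Apoe UMIs of the kept cells. Cells in none of these gates, among them cells with C1qa that exceeded the limits on Csf3r or Cd3e, stood at 1765, 2157 and 8527 and held 16.5%, 19.0% and 25.2% of the UMIs.

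T cells do not belong to the macrophage program and served as the measure of free RNA, which droplets take up from broken cells. They may also express some members themselves, so a T-cell value need not be free RNA alone. A T cell held on average 0.311, 0.255 and 0.674 Apoe UMIs in vehicle, p38i and p38KO, against 218, 231 and 318 in a macrophage, so the T-cell value was 0.142%, 0.110% and 0.212% of the macrophage value. C1qa in T cells moved the same way, at 0.0917, 0.0483 and 0.219 UMIs a cell. In T cells there were 3.39, 5.28 and 3.08 Apoe UMIs for each C1qa UMI, above the 2.03 of vehicle and 2.40 of p38i macrophages and close to the 2.94 of p38KO macrophages. The T-cell values rest on 51, 32 and 118 C1qa UMIs. Of the Apoe UMIs, 1 T cell held 31 of 173 in vehicle, 38 of 169 in p38i and 18 of 364 in p38KO. In monocytes the ratio was 316, 449 and 93.7, although monocytes and T cells alike were limited to fewer than 3 C1qa UMIs. For Trem2, Lpl, Cd36 and Abca1 the T-cell value was at most 3.41% of that in macrophages. For Spp1 it was 5.85% to 10.1%, for Fabp5 6.96% to 11.2% and for Cd9 10.5% to 20.3%. Of 556 vehicle T cells, 142 held a Fabp5 UMI and 116 a Cd9 UMI, and expression by the T cells was not told apart from free RNA. The Spp1 UMIs of the T-cell gate were uneven: 1 cell held 207 of 1051 in vehicle, 312 of 880 in p38i and 190 of 996 in p38KO.

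Not all members were highest in C1qa macrophages. Trem2 was, at 255, 268 and 409 CPM, with 97.8, 92.7 and 107 in monocytes and 0.841 to 4.29 in T cells. Cd9 had the opposite order. Its level was 1272, 1121 and 1356 in neutrophils, 563, 559 and 345 in monocytes and 203, 254 and 124 in macrophages, and neutrophils held 40.5% to 49.5% of its UMIs. Spp1 was highest in cells with Fn1 and no Ly6c2, at 1984, 2647 and 3308, against 1036, 1298 and 1119 in macrophages and 822, 610 and 604 in monocytes. That gate, of 125, 331 and 142 cells, was added after the members' values had been seen. Gpnmb was all but missing from C1qa macrophages, with 8, 3 and 26 UMIs in 2, 2 and 4 cells. Its level was 64.6, 33.8 and 17.8 in the cells with Fn1 and no Ly6c2, 15.05, 23.5 and 21.2 in monocytes, and no UMI was found in T cells, where 3 counts would be 0.841 to 0.986 CPM. Abca1 was near in level across the myeloid gates, at 102, 89.7 and 145 in macrophages, 81.9, 94.4 and 104 in monocytes and 69.3, 80.8 and 72.9 in neutrophils, with 4.60 to 7.04 in T cells. Fabp5 stood at 499, 1165 and 455 in the cells with Fn1 and no Ly6c2, above its level in macrophages in each of the 3 libraries, and at 158 to 182 in neutrophils. Cd36 stood at 44.6, 20.3 and 38.3 in that gate and at 3.27 to 6.74 in neutrophils. Lpl stood at 2.85, 7.59 and 45.8 there, on 3, 18 and 49 UMIs, with 26 of the 49 in 1 cell.

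**Figure D1:**
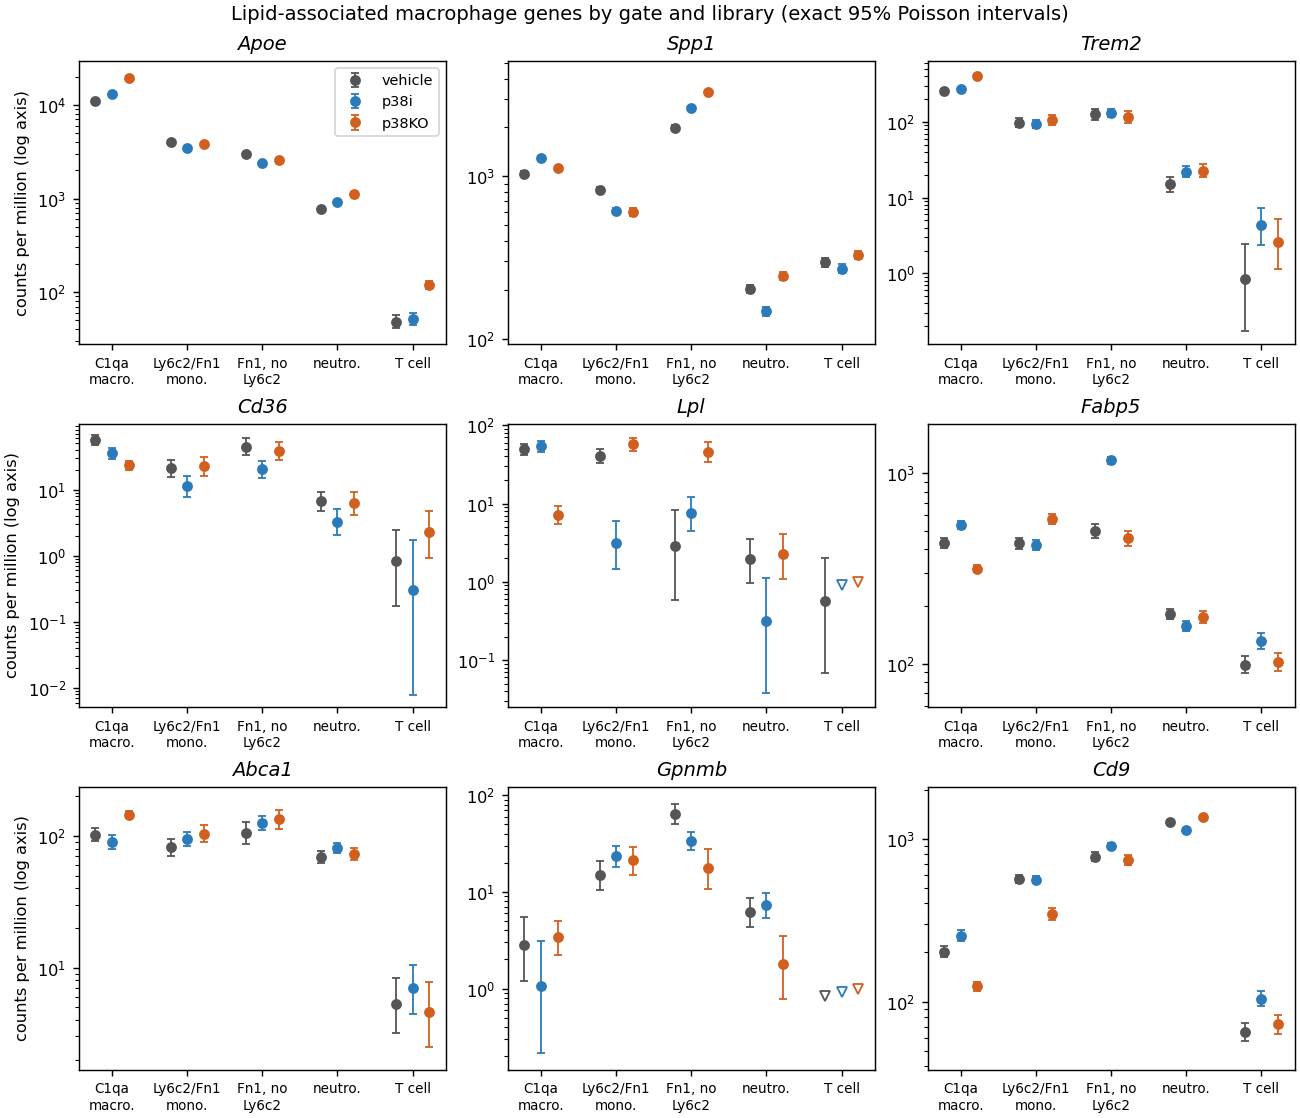
CPM of each gene (log axis, scale set per panel) in 5 gates, with 1 point per library and exact 95% Poisson intervals. Open triangles stand at the level of 3 counts where no UMI was found. Apoe and Trem2 are highest in C1qa macrophages, Cd9 in neutrophils, and Spp1 and the vehicle and p38i values of Gpnmb in cells with Fn1 and no Ly6c2.

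The comparison of p38i with vehicle asked what oral p38 inhibition did to these genes. In macrophages, none of the members was called higher and 1, Cd36, was called lower, among 8 with at least 20 counts (Gpnmb had 11). Over all 9604 genes with as many counts, 2.89% were called higher and 4.18% lower, so 1 of 8 is not far from the background. The median log2 ratio was 0.19 for the members and -0.02 for all genes. Cd36 fell from 161 UMIs, or 56.2 CPM, in vehicle to 101 UMIs, or 35.4, in p38i, a log2 ratio of -0.67 (-1.04 to -0.30). It was found in 41 of 145 vehicle and 25 of 163 p38i macrophages. The call was not made with each cell thinned to 1500 UMIs, nor with a size rule of 1. In p38i neutrophils Cd36 was also called lower, on 21 UMIs against 38, at -1.04 (-1.89 to -0.24), as were 270 of 9517 genes.

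The other members differed less between these libraries. Apoe had a log2 ratio of 0.26 (0.24 to 0.28), Spp1 of 0.33 (0.25 to 0.40), Fabp5 of 0.31 (0.20 to 0.42) and Cd9 of 0.33 (0.17 to 0.49). These 4 lay above 0 by more than counting error and below the size needed for a call. In T cells, Cd9 was called higher in p38i, at 0.67 (0.43 to 0.92), as were 605 of 10169 genes. Fabp5 in T cells stood at 0.41 (0.20 to 0.62). The part of free RNA in the macrophage ratios was not tested. A single vehicle macrophage held 827 of the 2967 Spp1 UMIs of its gate. Without the 1 cell richest in Spp1 in each library the ratio was 0.56, and without cells holding a mast or B cell marker it was 0.64, both past the size of a call. A single p38i macrophage held 285 of 1521 Fabp5 UMIs, and without the richest cell of each library the Fabp5 ratio was 0.11. Trem2 at 0.07 (-0.08 to 0.22), Lpl at 0.11 (-0.23 to 0.45) and Abca1 at -0.19 (-0.44 to 0.06) had intervals that held 0. For Lpl, 1 p38i macrophage held 53 of the 153 UMIs, and its ratio was -0.29 without the richest cell of each library. It was called lower, at -0.78, without the 5% of cells with most UMIs and called higher, at 0.52, without cycling cells, so no direction can be given.

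The comparison of p38KO with vehicle asked what loss of p38a in the tumor cells alone went with in the host's macrophages. In this comparison, 3 of the 9 members were called higher, Apoe, Trem2 and Abca1, and 3 lower, Lpl, Cd36 and Cd9. Over all 10673 genes with at least 20 counts, 8.45% were called higher and 3.14% lower. The members' median log2 ratio was 0.11, beside 0.05 for all genes. The vehicle library serves both comparisons, so they are not independent.

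Apoe, the cholesterol carrier, was 1.77-fold higher in p38KO than in vehicle macrophages, with 148214 UMIs in 466 cells against 31668 in 145 cells and a log2 ratio of 0.82 (0.80 to 0.84). The middle cell held 177 Apoe UMIs per 10000 in p38KO, 102 in p38i and 78.4 in vehicle. Its richest cell held 1.20% of the p38KO UMIs and 4.52% of the vehicle UMIs, so no single cell set the level. Trem2, the lipid receptor, was 1.60-fold higher, with 3105 UMIs against 731 and a log2 ratio of 0.68 (0.56 to 0.80). Abca1, the cholesterol pump, had 1101 UMIs against 293 and a log2 ratio of 0.50 (0.32 to 0.69). It stood at the edge of the size rule, and the call was lost under 9 of 16 other settings. Under all 16, Apoe kept a log2 ratio between 0.79 and 0.97 and Trem2 one between 0.47 and 0.72. The Trem2 call was lost with cells thinned to 1500 UMIs and with a size rule of 1.

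Lpl, Cd36 and Cd9 were the members called lower. Lpl, the lipase, fell from 49.6 CPM in vehicle to 7.25 in p38KO, with 142 UMIs in 37 of 145 cells against 55 UMIs in 14 of 466 cells. The log2 ratio was -2.77 (-3.25 to -2.32), or 6.84-fold lower, and it stayed between -3.68 and -1.83 under the other settings. Cd36, the scavenger receptor, fell from 56.2 to 23.3, with a log2 ratio of -1.27 (-1.59 to -0.95). Fabp5, the fatty acid chaperone, stood at 430.5 and 316 CPM, a log2 ratio of -0.45 (-0.55 to -0.35) that missed the size of a call. With each cell weighted equally the Fabp5 ratio was -1.34, the lowest over the settings. Cd9 fell from 203 to 124, a log2 ratio of -0.71 (-0.86 to -0.56). Spp1 differed little, at 0.11 (0.05 to 0.17), although 1 p38KO cell held 2509 of its 8491 UMIs. Gpnmb, at 8 and 26 UMIs, was too sparse to compare.

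**Figure D2:**
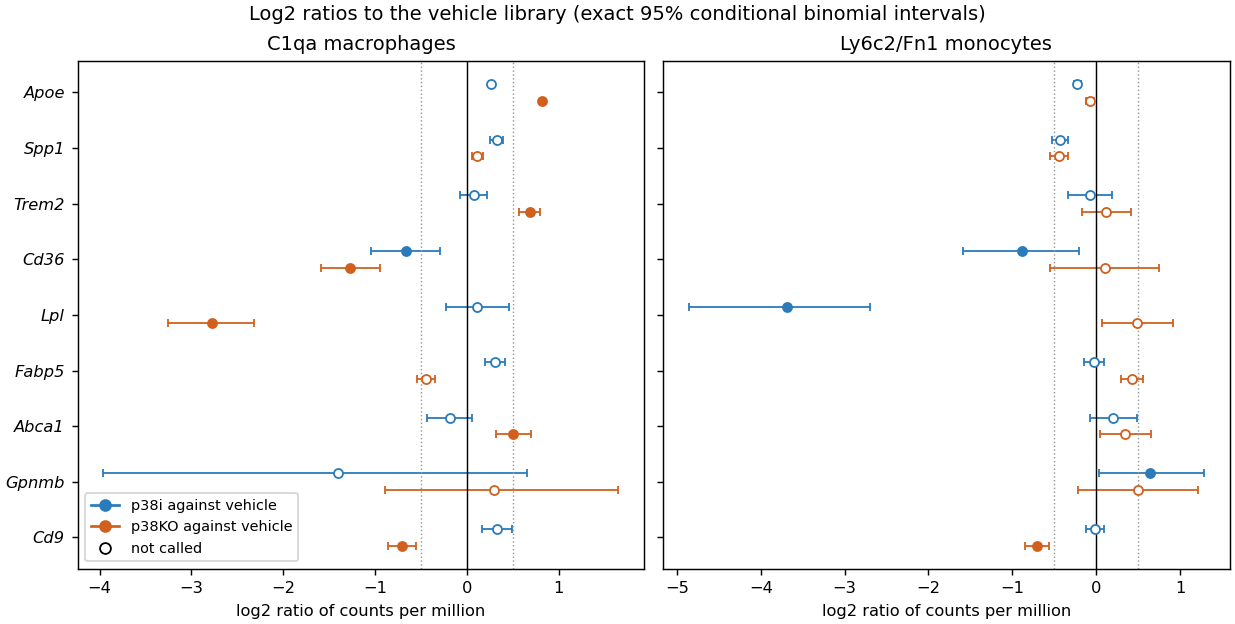
Log2 ratios of CPM to the vehicle library for p38i (blue) and p38KO (orange), in C1qa macrophages (left) and Ly6c2/Fn1 monocytes (right), with exact 95% conditional binomial intervals. Filled points are called, and dotted lines mark the size of 0.5. In macrophages the p38KO points of Apoe, Trem2 and Abca1 lie at 0.50 or more and those of Cd9, Cd36 and Lpl at -0.71 or less.

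Set directly against p38i, p38KO macrophages had 3 members called higher and 4 lower of 9, against 9.72% higher and 3.02% lower of all 10673 genes. Apoe, Trem2 and Abca1 were the higher ones, with log2 ratios of 0.56 (0.55 to 0.58), 0.61 (0.50 to 0.73) and 0.69 (0.50 to 0.90). Lpl at -2.89, Cd9 at -1.04, Fabp5 at -0.75 and Cd36 at -0.60 were the lower ones. The members' median was -0.21 and that of all genes 0.08.

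In p38i monocytes, 1 member was called higher (Gpnmb) and 2 lower (Lpl and Cd36) of 9, against 4.07% higher and 3.76% lower of all 8892 genes with enough counts. All 3 calls rested on few cells. Of the 92 Lpl UMIs in vehicle monocytes, 82 were in 1 cell, and p38i monocytes had 9. The log2 ratio of -3.69 (-4.86 to -2.70) became -1.33, no longer called, without the richest cell of each library. For Cd36, 34 of 47 vehicle UMIs were in 1 cell, and the ratio of -0.89 (-1.58 to -0.21) became 0.61 without the richest cell. Gpnmb had 34 UMIs in 8 vehicle cells and 67 UMIs in 16 p38i cells, a log2 ratio of 0.64 (0.03 to 1.28), and 7 of 18 other settings did not call it. Spp1 was lower at -0.43 (-0.52 to -0.33), short of a call, Apoe stood at -0.22 (-0.27 to -0.18), and Cd9 at -0.01 (-0.12 to 0.10).

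In p38KO monocytes, no member was called higher and 1, Cd9, was called lower, against 6.38% higher and 2.94% lower of all 8596 genes. Cd9 fell from 563 to 345 CPM, a log2 ratio of -0.71 (-0.85 to -0.57), like its value in macrophages. Apoe stood at -0.07 (-0.12 to -0.02) and Trem2 at 0.12 (-0.17 to 0.41), so the higher levels seen in macrophages were not seen in this gate. Fabp5 was at 0.43 (0.30 to 0.56), and at 0.86 without cells holding a mast or B cell marker, Abca1 at 0.35 (0.05 to 0.65) and Spp1 at -0.44 (-0.55 to -0.33). Over 18 other settings the Fabp5 ratio ran from -0.52 to 0.86, so its sign was not settled. A single cell held 248 of the 1006 Fabp5 UMIs in p38KO, and another 148 of 966 in vehicle. Lpl was at 0.49 (0.07 to 0.92), but 95 of its 100 p38KO UMIs came from 1 cell and the ratio was -0.63 without the richest cells. Against p38i, p38KO monocytes had 2 members called higher, Lpl and Cd36, and 1 lower, Cd9, beside 6.6% higher and 3.23% lower of all 8836 genes. In p38KO, 95 of 100 Lpl and 19 of 39 Cd36 UMIs were in 1 cell each. Against vehicle, the p38KO ratio of Cd36 was 0.10 (-0.55 to 0.75), and 0.99 without the richest cells. Apoe and Trem2 were also called higher in p38KO than in vehicle outside the macrophage gate, where free RNA may add to their counts. In neutrophils Apoe was called higher at 0.56 (0.50 to 0.61) and Trem2 at 0.60 (0.17 to 1.03), from 15.1 to 22.8 CPM. In T cells Apoe was called higher at 1.30 (1.04 to 1.57). Of all genes, 1148 of 9335 were called higher in neutrophils and 819 of 10125 in T cells. C1qa rose too, from 27.7 to 76.5 CPM in neutrophils and from 14.3 to 38.8 in T cells. Neutrophil Trem2 was also called higher in p38i than in vehicle, at 0.55 (0.15 to 0.96), as were 926 of 9517 genes. The part of free RNA in these values was not tested.

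The share of cells with a transcript does not depend on 1 rich cell, but it does on depth, so each cell was thinned to 5000 UMIs and 19, 18 and 63 shallower macrophages of vehicle, p38i and p38KO were left out. Trem2 was found in 63.5% (54.4 to 71.9) of vehicle, 73.8% (65.8 to 80.7) of p38i and 80.9% (76.7 to 84.6) of p38KO macrophages. The p38KO interval lay above that of vehicle, while that of p38i overlapped both. Unthinned, the shares were 77.9%, 90.2% and 89.3%. Lpl was found in 9.52% (5.02 to 16.0), 8.97% (4.86 to 14.8) and 1.74% (0.701 to 3.55), and the p38KO interval lay below the other two. Unthinned, its shares were 25.5%, 13.5% and 3.00%. Cd36 was found in 13.5% (8.06 to 20.7), 6.21% (2.88 to 11.5) and 5.21% (3.25 to 7.86), and Cd9 in 48.4% (39.4 to 57.5), 55.9% (47.4 to 64.1) and 29.5% (25.1 to 34.2). The unthinned shares were 28.3%, 15.3% and 12.4% for Cd36 and 76.6%, 76.7% and 46.1% for Cd9. Apoe was found in 124 of 126, 141 of 145 and 399 of 403 of these cells, so its share left little room for a difference.

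For the background of these shares, cells were thinned to 1500 UMIs, a depth that T cells reach (median 3966 to 5182.5 UMIs). Trem2 was then found in 35.2%, 32.5% and 43.3% of macrophages and in 0.180%, 0.453% and 0.370% of T cells. Cd36 was found in 4.14%, 3.07% and 1.93% of macrophages and in 1 T cell of the 3 libraries. Lpl was found in 5.52%, 3.68% and 0.429% of macrophages and in none of 556, 662 and 540 T cells. The upper limits of the T-cell shares were 0.661%, 0.556% and 0.681%. The 2 p38KO macrophages with Lpl at this depth are thus not set apart from the background. Cd9 was found in 24.8%, 27.0% and 13.9% of macrophages and in 7.37%, 10.3% and 7.96% of T cells.

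**Figure D3:**
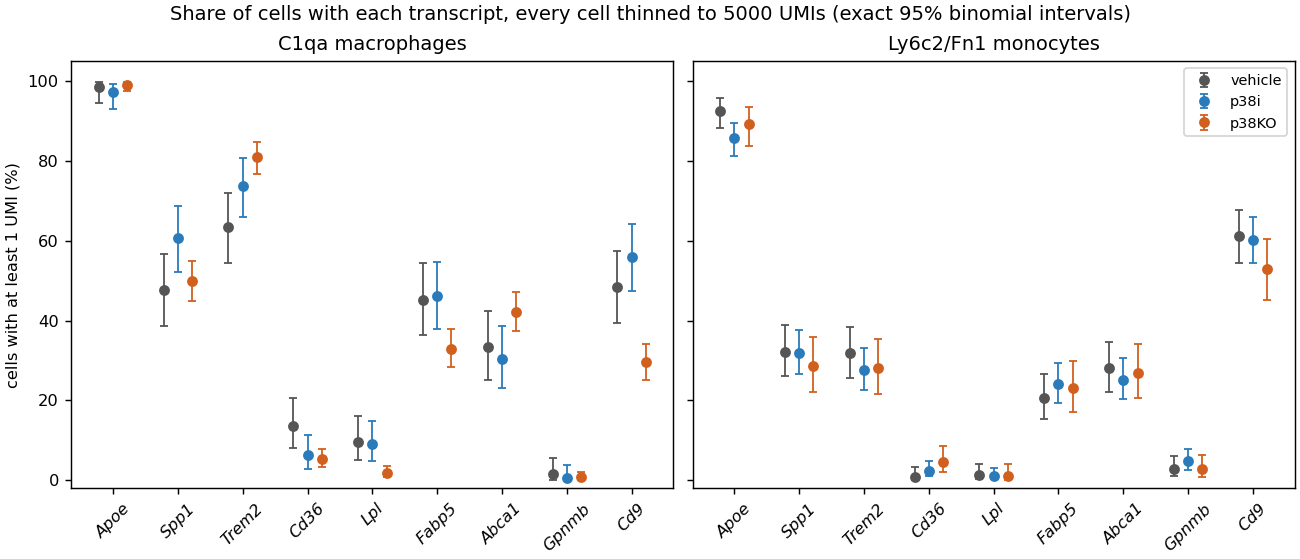
Percent of C1qa macrophages (left) and Ly6c2/Fn1 monocytes (right) with at least 1 UMI of each gene after every cell was thinned to 5000 UMIs, with exact 95% binomial intervals. In macrophages the p38KO share is above that of vehicle for Trem2 (80.9% against 63.5%) and below it for Lpl (1.74% against 9.52%) and Cd9 (29.5% against 48.4%). In monocytes the intervals of the 3 libraries overlap for each gene.

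Within the macrophage gate the differences were looked at by C1qa level and by cycling. Both splits used raw UMI counts, so they also split cells by depth. In vehicle the median was 6822 UMIs in cells with 3 to 9 C1qa UMIs and 21367 in those with 30 or more. It was 33837 in cycling and 14777.5 in other vehicle macrophages. Cells with 30 or more C1qa UMIs made up 73.1%, 79.8% and 82.4% of the gate. In them, p38KO against vehicle gave log2 ratios of 0.76 for Apoe, 0.70 for Trem2, -3.42 for Lpl, -1.64 for Cd36 and -0.70 for Cd9. The cells with less C1qa, which were few, did not all show these differences. Among 21 vehicle and 38 p38KO cells with 3 to 9 C1qa UMIs, the ratio was 0.01 (-0.12 to 0.14) for Apoe, -0.12 (-0.74 to 0.51) for Trem2 and 0.78 (0.35 to 1.23) for Cd9, and Lpl had 0 and 16 UMIs. Among 18 vehicle and 44 p38KO cells with 10 to 29 C1qa UMIs, it was 1.11 (1.02 to 1.21) for Apoe, -1.40 (-1.90 to -0.91) for Cd9 and 1.85 (0.72 to 3.17) for Cd36. These p38KO cells held 35 Cd36 UMIs. In the whole p38KO gate, 1 cell held 34 Cd36 UMIs and 1 held 16 Lpl UMIs, with their C1qa level not recorded. The Cd36 value here and the Lpl count at 3 to 9 may thus each rest on 1 cell. For Spp1 in p38i the sign turned, with log2 ratios of 0.97 (0.89 to 1.06) at 30 or more, -1.73 (-1.95 to -1.52) at 10 to 29 and -0.75 (-1.22 to -0.29) at 3 to 9. A single vehicle macrophage held 827 Spp1 UMIs, while the vehicle cells held 1162 in all at 10 to 29 and 1647 at 30 or more. The C1qa level of that cell was not recorded, so the value at 10 to 29 may rest on 1 cell. The sign turned for other members too. From the lowest C1qa level to the highest, p38i ratios were -1.25, 2.29 and 0.39 for Fabp5. They were 0.94, -0.72 and 0.52 for Cd9 and -0.24, 0.59 and 0.20 for Apoe. In p38KO, Fabp5 was at -0.46, 0.88 and -0.43. Each of these intervals left out 0, but the levels of 3 to 9 and 10 to 29 held only 11 and 22 p38i cells. Spp1 in p38KO was at 1.16, 0.93 and 0.15, and 1 p38KO cell held 2509 of its UMIs.

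Cycling macrophages, with at least 2 UMIs of Mki67 and Top2a together, were 21.4%, 18.4% and 23.6% of the gate. In vehicle, Apoe was at 7091 CPM in cycling and 13264 in other macrophages, and Trem2 at 165 and 305. In p38i, Apoe was at 7542 and 15255, and in p38KO at 12820.1 and 23359.9. Apoe was thus lower in cycling than in other macrophages in each library. The p38KO log2 ratio to vehicle was 0.85 (0.82 to 0.89) in cycling and 0.82 (0.80 to 0.84) in other macrophages for Apoe, and 0.99 (0.75 to 1.24) and 0.58 (0.44 to 0.71) for Trem2. Lpl was at 75.2 CPM in cycling vehicle macrophages and 35.3 in the others, and at 2.54 and 9.94 in p38KO.

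Across single macrophages, at 5000 UMIs a cell, the members did not move as 1 block. Apoe and Trem2 went together in each library, with Pearson's r of 0.37, 0.36 and 0.41 over 126, 145 and 403 cells. Apoe and Spp1 had r of -0.17, -0.35 and -0.30, and Apoe and Cd9 of -0.09, -0.29 and -0.26. Spp1 and Cd9 had r of 0.35, 0.26 and 0.24. Lpl and Cd36 had r of 0.10 in vehicle, 0.51 in p38i and 0.49 in p38KO, with few cells holding either. Cells of a library share its free RNA, so these values are descriptions. The 8 genes whose level was most like the mean z score of the 9 members, ranked by the lowest r of the 3 libraries among 4486 genes, were Ctsb, Ctsl, Ctsd, Ccl6, Fth1, Mmp12, Lgals3 and Ftl1. Their lowest r ran from 0.39 for Ctsb to 0.28 for Ftl1. Ctsb, Ctsl and Ctsd are lysosomal cathepsins, Fth1 and Ftl1 the ferritin chains, Ccl6 a chemokine, Mmp12 the macrophage elastase and Lgals3 galectin-3.

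Other genes of lipid handling were described by lists, whose counts stand against 2.89% of all genes called higher and 4.18% lower in p38i macrophages, and 8.45% and 3.14% in p38KO. Of 15 companion genes of lipid-associated macrophages with a row (Clec7a, also listed, was not analysed here), none was called higher and 1 lower in p38i macrophages, and 3 higher and none lower in p38KO, with medians of -0.06 and 0.13 beside -0.02 and 0.05 for all genes. Igf1, a growth factor, stood at 14.0, 8.41 and 45.7 CPM, with a log2 ratio to vehicle of 1.71 (1.24 to 2.22) in p38KO. Cd63, a lysosomal tetraspanin, and Syngr1 were the other 2 higher, at 0.52 and 0.63. Mmp12 was the 1 lower in p38i, at -0.55 (-0.65 to -0.45). In p38KO neutrophils 5 of 14 companion genes were called higher (1148 of 9335 of all genes), with a median of 0.25. The medians of the companion genes were -0.02 in p38KO monocytes and -0.14 in p38KO T cells.

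Of 10 genes of cholesterol efflux and LXR response, 3 were called higher in p38KO macrophages (8.45% of all genes) and none lower (3.14%), with a median of 0.12. This was not particular to macrophages. In p38KO, 2 were called higher in monocytes (6.38% of all genes) and 2 in neutrophils (1148 of 9335), with medians of 0.13 and 0.30. In p38KO T cells 3 were called higher and 1 lower (819 and 309 of 10125 genes), with a median of 0.29. In macrophages Npc1, which moves cholesterol out of lysosomes, stood at 38.4, 41.0 and 74.0 CPM, a log2 ratio of 0.95 (0.65 to 1.26). Pltp, a phospholipid transfer protein and LXR target, stood at 65.3, 89.0 and 123, a ratio of 0.91 (0.68 to 1.15), and Mylip, another LXR target, at 0.71. In p38i 1 was called lower, Nr1h3, the gene of LXR alpha, with 17 UMIs against 32. Of 8 genes of lipid storage and lysosomal hydrolysis, 1 was called higher and 1 lower in p38KO, with a median of 0.05. The gene called lower was Hilpda, an inhibitor of lipid droplet lipolysis that hypoxia induces, which stood at 187, 142 and 87.7, a ratio of -1.10 (-1.26 to -0.93). In p38i, Dgat1 was called higher on 37 UMIs against 21.

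Some genes of sterol synthesis were called higher in the macrophages of both p38i and p38KO. Of 6 genes, 3 were called higher in p38i macrophages (2.89% of all genes), with a median log2 ratio of 0.53, and 2 in p38KO (8.45%), with a median of 0.40, and none was called lower. In p38i monocytes none was called, with a median of -0.18. In p38KO, 2 were called higher in monocytes (6.38% of all genes) and 3 in neutrophils (1148 of 9335), with medians of 0.34 and 0.54. In macrophages Hmgcs1 stood at 32.5, 58.2 and 50.7 CPM, with ratios of 0.84 (0.47 to 1.22) and 0.64 (0.31 to 0.99). Idi1 had 0.58 in p38i, and Sqle had 0.71 in p38KO. Cd63, Mylip and Idi1 were named after their values were seen. Of 10 genes of lipid uptake and binding, 6 had enough counts in macrophages and none was called in either comparison. In p38i neutrophils 5 of 8 were called higher and none lower (926 and 270 of 9517 genes), with a median of 0.61. In p38KO neutrophils 2 of 9 were called higher and 1 lower (1148 and 193 of 9335 genes), with a median of 0.21. Of 7 genes of PPAR response and fatty acid oxidation, 4 and 6 had enough counts in p38i and p38KO macrophages. The 1 called was Pparg, lower in p38KO on 15 UMIs against 13. Pparg encodes the fatty acid sensor for which Lpl, Fabp5 and Cd36 are known targets. A link between Pparg and the levels of these members was not tested.

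**Figure D4:**
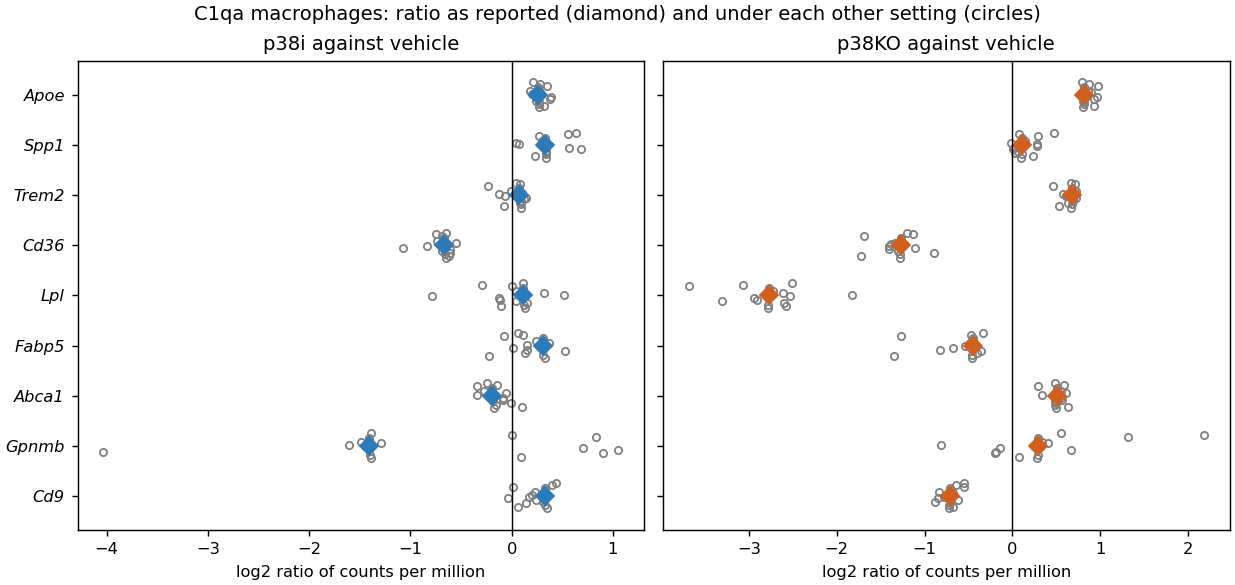
Log2 ratio to vehicle of each gene in C1qa macrophages as reported (diamond) and under each other setting (circles), for p38i (left) and p38KO (right). In p38KO, Apoe, Trem2 and Abca1 lie above 0 and Lpl, Cd36, Fabp5 and Cd9 below 0 under all 16 settings. Gpnmb has the widest scatter.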

How the data were processed

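Single-cell libraries of CD45+ tumor leukocytes were analysed from the count matrices deposited by the authors. These hold UMI counts per gene and cell, not normalized, made with Cell Ranger 6.0.0 per the file headers, and mm10 is named in the submitters' processing notes. The annotation release is not given in the sources used here. The 3 libraries, 1 per group, held 4588, 6343 and 5212 barcodes and 21675352, 25996832 and 25997636 UMIs. Cells with at least 1500 UMIs, at least 300 genes and at most 20% mitochondrial UMIs were kept.

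Gates used raw counts. T cells held at least 1 Cd3e UMI with at most 1 Csf3r UMI and not both Ly6c2 and Fn1, and neutrophils at least 2 Csf3r UMIs with no Cd3e UMI, both with fewer than 3 C1qa UMIs. No doublet caller was run. The limits on Csf3r and Cd3e, and an alternative without the 5% of cells with most UMIs, stand in for one. Counts were summed per gate and library and divided by the gate's UMIs. Intervals are exact: Poisson for levels, Clopper-Pearson for shares and conditional binomial for ratios, at 95%. They and the floor of 3 counts cover counting error only. The interval and call steps were run on simulated Poisson sums, the model that the intervals assume, with no spread between cells. There, 95.7% to 96.1% of intervals held the true ratio and 1.86% to 2.50% of unchanged genes were called. These shares check the code only and do not carry over to UMIs clumped in few cells. No replicate block was possible.

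The members and lists were chosen with earlier results of these data known. Beyond the members, up to 2 genes called higher and up to 2 called lower with the largest ratios were named per list and comparison with vehicle in macrophages, and the 8 genes most like the members. Some genes that this rule names are not reported here, though the counts and medians of their lists include them. Alternatives changed the scaling, the weight of cells, the cell filter, the gates, doublet and cycling cells, other cell types, free RNA, the call rule and the depth, and 3 were chosen after seeing the data. Gene positions came from GENCODE M21 and promoters from RefSeq. Software was Python 3.11.15, numpy 2.4.6, scipy 1.17.1 and matplotlib 3.10.9.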

Additional observations from a re-analysis of the deposited data

Results flagged for a closer look

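Some members stood above vehicle in macrophages and below it in monocytes, or the reverse, and the difference between the gates was not tested. In p38i, the log2 ratio of Apoe was 0.26 in macrophages and -0.22 in monocytes, a difference of 0.48, and that of Spp1 was 0.33 and -0.43, a difference of 0.75. In p38KO, Apoe had 0.82 and -0.07, a difference of 0.89, and Spp1 had 0.11 and -0.44, a difference of 0.55. Fabp5 had -0.45 in p38KO macrophages and 0.43 in p38KO monocytes, a difference of -0.88, but the monocyte ratio ran from -0.52 to 0.86 under other settings. Lpl had -2.77 and 0.49, a difference of -3.27, but 1 cell held 95 of the 100 Lpl UMIs of p38KO monocytes, and without the richest cells the monocyte ratio was -0.63.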

How the results depend on the processing

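Of 612 log2 ratios of members under other settings, 454 stayed within the counting interval of the reported value, 152 moved past it and 6 changed sign after a call. The 6 were all p38i ratios in monocytes. Gpnmb was at -0.013 with Ly6c2 and Fn1 together at 3 or more, and Gpnmb at -0.94 and Lpl at 1.41 in cells with Fn1 and no Ly6c2. Cd36 was at 0.59 with gates on thinned cells, 0.62 without the 5% of cells with most UMIs and 0.61 without the 1 richest cell. The cause was not tested.

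Of members called in p38i macrophages there was 1 as reported. There were 2 with C1qa of at least 1 or at least 10, no limit on Csf3r and Cd3e, gates on thinned cells, without the 5% of cells with most UMIs, without cycling cells, without the richest cell, and without cells with mast or B cell markers, and 0 with a size rule of 1 or cells thinned to 1500 UMIs. In p38KO macrophages there were 6, 2 with a size rule of 1, and 4 to 7 under the other settings. Over all of these settings Abca1 was lost under 9 and Fabp5 gained under 5, and Trem2, Lpl and Abca1 were lost at 1500 UMIs a cell. In p38i monocytes there were 3, with 0 without the 5% of cells with most UMIs and 1 without cells with tumor or stromal markers, with a size rule of 1, with cells thinned to 1500 UMIs and without the richest cell.

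In p38KO monocytes there was 1. There were 3 with each cell weighted equally, C1qa of at least 1, without the 5% of cells with most UMIs, without cells with tumor or stromal markers, with T cell background subtracted, in cells with Fn1 and no Ly6c2, and without cells with mast or B cell markers. There were 2 with Ly6c2 and Fn1 together at 3 or more, no limit on Csf3r and Cd3e, without cycling cells, with cells thinned to 1500 UMIs and without the richest cell, and 0 with a size rule of 1. The settings without the richest cell, with Fn1 and no Ly6c2, and without mast or B cell markers were chosen after seeing the data. Median-ratio scaling shifted all ratios by -0.04 to 0.02. No replicate could be left out with 1 library per group. No paired analysis was possible because each group has 1 library.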
